A study of Homo sapiens with 4 samples.

Results

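The ID genes and a set of SMAD-regulated genes were followed in A673 cells, an Ewing sarcoma line, after transfection with an siRNA against FAT4 or a scrambled control siRNA. The 9 members were ID1, ID2, ID3, ID4, SMAD6, SMAD7, BAMBI, BMP4 and SKIL, taken by gene symbol out of 23228 genes in the count files. RNA was collected 24 h or 48 h after lipid transfection, and each siRNA and time was 1 library: control 24 h, control 48 h, FAT4 siRNA 24 h and FAT4 siRNA 48 h. All 4 libraries came from the same cell line in serum-containing medium, with no untransfected sample among them. There are no replicate cultures, so p-values do not measure the spread between cultures.

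Bone morphogenetic proteins (BMPs) and TGF-beta bind pairs of receptor kinases, which phosphorylate SMAD transcription factors. BMP receptors act mainly through SMAD1, SMAD5 and SMAD9, and TGF-beta and activin receptors through SMAD2 and SMAD3. The ID genes are classical targets of the BMP branch and encode helix-loop-helix proteins without a DNA-binding region, which hold E proteins and other basic helix-loop-helix factors away from DNA. SMAD6, SMAD7, BAMBI and SKIL are induced by the pathways that they restrain. ID genes also respond to serum and growth factors, so their level is not a readout of BMP alone.

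Counts assigned to genes totalled 15196813 to 22625833 per library, and a floor of 3 counts stood for 0.133 to 0.197 per 1000000 of these totals. Levels are counts per 1000000 (CPM), scaled by the trimmed mean of M-values (TMM). FAT4, the targeted gene, was at 165 and 149 CPM in control 24 h and 48 h and at 71.8 and 60.2 CPM with its siRNA. Of 11 Ewing sarcoma markers, 10 were at 5 CPM or more in every library, and CD99 was listed at 0 in all 4, which is not read as absence because the annotation used for counting is not known here. The summed level of that list was 6975 to 9867 CPM, most of it CAV1 and CCND1 in every library. In the siRNA comparison described below, 2 of its 10 tested genes were called higher and 4 lower, beside 11.9% and 14.1% of all genes tested. Of 14 markers of other cell types, KRT8 and KRT18 were at 5 CPM or more, and the leukocyte marker PTPRC, the endothelial marker PECAM1 and the epithelial marker EPCAM were at or below 0.474 CPM. That list summed to 207 and 212 CPM at 24 h and 175 and 162 CPM at 48 h, most of it KRT18, and its part in the time differences below was not tested.

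Of the 9 members, 8 were expressed and passed the filter on low counts. BMP4, a secreted ligand, had 0 counts in both control libraries and 1 count in each FAT4 siRNA library. These counts lay under the floor, so BMP4 was not detectable at this depth and no fold was taken. Levels of different genes were ordered as CPM per kilobase of the longest coding transcript. On that scale ID2 and ID3 stood highest in every library. ID3 was at 101 CPM per kilobase and ID2 at 94.96 CPM per kilobase in control 24 h. In control 48 h they were at 38.6 and 85.8 CPM per kilobase. BAMBI lay between 23.3 and 31.04 CPM per kilobase, ID4 between 19.7 and 27.3, and ID1 between 8.31 and 20.1. SMAD6 (4.50 to 9.13 CPM per kilobase), SKIL (3.29 to 4.73) and SMAD7 (3.13 to 3.65) were lowest among the expressed members. In control 24 h ID1 and ID4, at 20.1 and 19.7 CPM per kilobase, had overlapping exact 95% counting intervals. Intervals also overlapped for ID3 and ID2 at 24 h and for SKIL and SMAD6 at 48 h, under either siRNA. The same held for BAMBI and ID4 in control 48 h. SKIL and SMAD7 overlapped at 24 h under both siRNAs. Dividing by the median length of a gene's coding transcripts put ID2 first in all 4 libraries. It also changed the order among SMAD6, SMAD7, SKIL and ID1, with SMAD7 then at 11.4 to 13.3 CPM per kilobase.

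**Figure D1:**
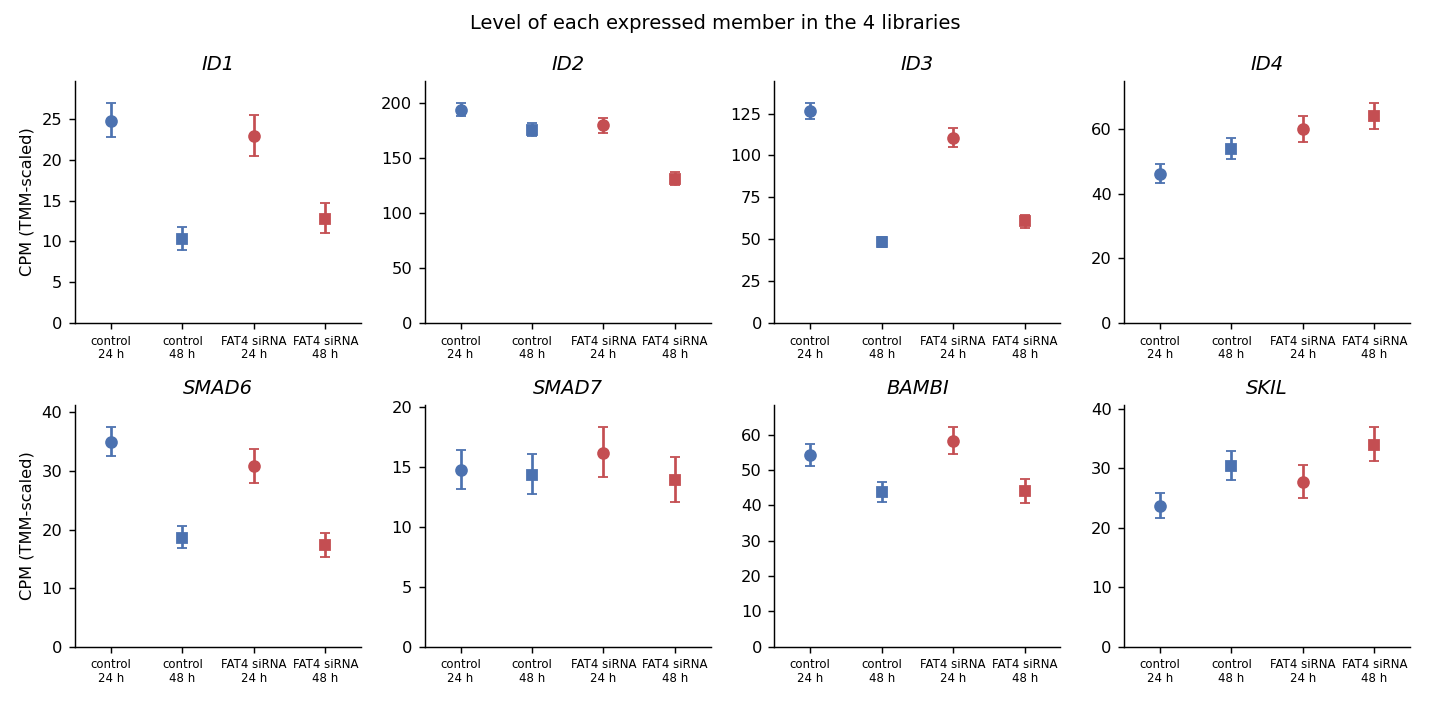
CPM of the 8 expressed members (1 panel each, axes from 0) in the 4 libraries, control siRNA in blue and FAT4 siRNA in red, circles for 24 h and squares for 48 h. Bars are exact 95% Poisson intervals, which cover counting error only. ID1, ID3, SMAD6 and BAMBI are lower in both 48 h libraries than in both 24 h libraries, with bars that do not overlap. SMAD7 lies between 13.9 and 16.2 CPM in all 4, with overlapping bars. How many of all genes separate by time in this way was not counted.

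The comparison of 48 h with 24 h asked what changed with time after transfection, and it held the larger changes of the set. ID3, ID1 and SMAD6 fell to between 0.382 and 0.561 of their 24 h level under either siRNA, ID2 and BAMBI fell less, and SKIL rose slightly. ID4 and SMAD7 did not pass the test. Lower and higher calls come from edgeR's quasi-likelihood test of the time term over all 4 libraries, with siRNA as the second term and Benjamini-Hochberg adjustment over 13712 genes at 0.05. Of the 8 members tested, 5 were called lower and 1 higher, beside 12.8% of all genes tested called lower and 13.8% higher. The median log2 fold change was -0.33 over the 8 tested members and 0.01 over all genes tested. The members were chosen with earlier results of these data known, so these counts and medians are a description and no test of the set. As these are bulk libraries, fewer cells that express a gene and less RNA per cell cannot be told apart.

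ID3, which restrains E proteins and is a direct BMP target, was at 126.5 CPM at 24 h and 48.3 CPM at 48 h with control siRNA, and at 111 and 60.6 CPM with FAT4 siRNA. Both 48 h libraries lay below both 24 h libraries, with no overlap. The 48 h to 24 h ratio of ID3 was 0.382 under control siRNA, with a 95% counting interval of 0.354 to 0.411, and 0.547 under FAT4 siRNA, with an interval of 0.505 to 0.593. The fitted log2 level of ID3 fell by 1.13 (SE 0.1005, adjusted p = 6.68e-27), and it was lower in 2 of 2 pairs.

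ID1, its closest relative in expression here, was at 24.8, 10.2, 22.9 and 12.8 CPM in the same order of libraries (control 24 h and 48 h, then FAT4 siRNA 24 h and 48 h), which is kept below. Again the 24 h libraries were high and the 48 h libraries low, with no overlap. The ratio of 48 h to 24 h for ID1 was 0.413 (interval 0.350 to 0.485) under control siRNA and 0.559 (0.467 to 0.668) under FAT4 siRNA. ID1 fell by 1.06 in log2 units (SE 0.149, adjusted p = 6.96e-11). SMAD6, the inhibitory SMAD that acts mostly on BMP receptors, was at 35.02, 18.6, 30.8 and 17.3 CPM. Its time ratios had overlapping intervals under the 2 siRNAs, at 0.531 (0.468 to 0.601) with control and 0.561 (0.481 to 0.653) with FAT4 siRNA. SMAD6 fell by 0.88 in log2 units (SE 0.134, adjusted p = 3.95e-09).

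The pair of control libraries and the pair of FAT4 siRNA libraries share no library, so the time ratio was read in each. The pairs differ in siRNA and were scaled together, so they are not replicates of each other. A 48 h level at least 1.5-fold below the 24 h level was seen for ID1, ID3 and SMAD6 under control siRNA, where 2.46% of 10595 genes averaging 5 CPM or more were that much lower and 4.79% that much higher. The same 3 members were past 1.5-fold under FAT4 siRNA, where 3.38% of genes were lower and 6.54% higher. Both pairs together were past 1.5-fold lower for 106 genes (1.0%). None of the members was 1.5-fold higher under either siRNA. Ranked from the lowest fitted time change among those 10595 genes, ID3 was number 16, ID1 number 20 and SMAD6 number 48. Only 7 of those genes had lower time ratios than ID3 under both siRNAs, 14 than ID1 and 26 than SMAD6. The calls for ID1 and ID3 were also made by DESeq2 and with a preset biological coefficient of variation (BCV) of 0.2, and SMAD6 missed at that BCV (adjusted p = 0.0908). A model with time alone called none of the 3, with adjusted p = 0.0536 for ID3, 0.123 for ID1 and 0.137 for SMAD6.

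**Figure D2:**
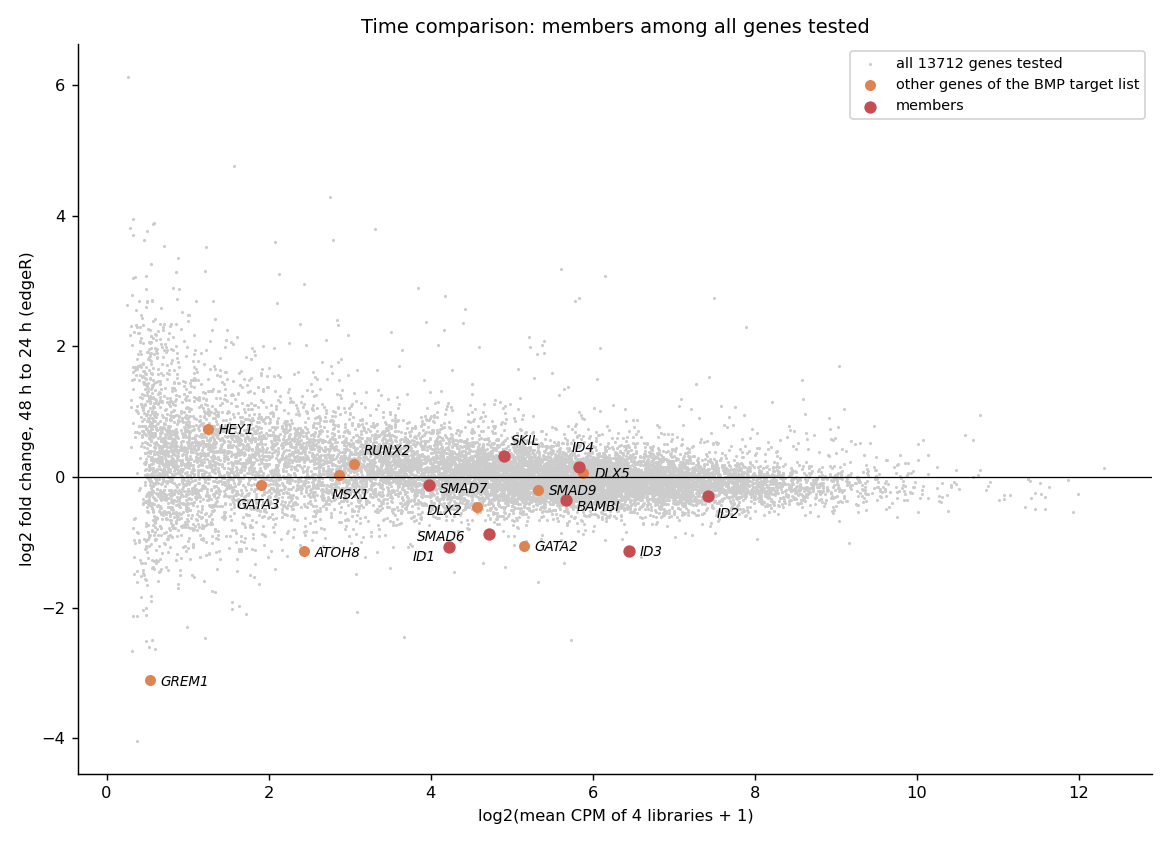
Fitted log2 fold change of 48 h to 24 h against log2 of the mean CPM plus 1 for all 13712 genes tested (grey), with the 8 expressed members in red and the 10 other tested genes of the BMP target list in orange. ID3 (-1.13), ID1 (-1.06) and SMAD6 (-0.88) lie at the lower edge of genes of like abundance, beside GATA2 at -1.05, whereas SKIL and ID4 lie above 0.

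The proximal promoters of ID1, ID3 and SMAD6, the members that fell the furthest, are shown with that of SKIL, the member that rose. They are the 250 bases before the RefSeq start in GRCh38.p14, given 5′ to 3′ on the gene's strand. The table has windows for all 9 members, and the deposited counts were made on hg19, so these coordinates belong to the RefSeq table alone. The ID1 window is chr20:31605039-31605288 (plus strand), that of ID3 chr1:23559502-23559751 (minus strand), that of SMAD6 chr15:66701986-66702235 (plus strand) and that of SKIL chr3:170357465-170357714 (plus strand). Capitals mark exact matches on either strand to GTCTAGAC, a palindromic SMAD-binding element, GGCGCC, a GC-rich element bound by BMP-type SMADs, TATAAA or TGACGTCA, the cAMP response element. In ID1, TATAAA on one strand overlaps its match on the other.
ID1: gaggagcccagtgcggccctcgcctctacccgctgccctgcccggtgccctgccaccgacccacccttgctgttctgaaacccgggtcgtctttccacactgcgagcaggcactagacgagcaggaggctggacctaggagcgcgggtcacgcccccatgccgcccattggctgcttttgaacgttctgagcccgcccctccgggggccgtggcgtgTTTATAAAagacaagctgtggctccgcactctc
ID3: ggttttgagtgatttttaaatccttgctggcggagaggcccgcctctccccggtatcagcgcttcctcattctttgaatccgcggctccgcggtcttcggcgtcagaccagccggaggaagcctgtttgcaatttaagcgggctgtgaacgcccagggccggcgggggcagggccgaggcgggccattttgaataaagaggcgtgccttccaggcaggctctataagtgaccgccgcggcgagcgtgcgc
SMAD6: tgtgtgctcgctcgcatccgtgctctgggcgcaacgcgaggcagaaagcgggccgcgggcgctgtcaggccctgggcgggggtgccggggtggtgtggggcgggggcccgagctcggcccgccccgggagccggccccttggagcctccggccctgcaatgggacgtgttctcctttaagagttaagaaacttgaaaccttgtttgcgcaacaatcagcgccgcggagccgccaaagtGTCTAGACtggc
SKIL: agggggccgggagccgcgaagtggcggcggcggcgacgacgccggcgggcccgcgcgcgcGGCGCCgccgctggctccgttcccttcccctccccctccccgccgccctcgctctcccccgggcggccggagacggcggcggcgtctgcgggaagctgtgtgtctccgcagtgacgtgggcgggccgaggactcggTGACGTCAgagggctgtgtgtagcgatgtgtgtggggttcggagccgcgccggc

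SMAD6 holds GTCTAGAC starting 12 bases before its start, a word found in 0.182% of 35116 RefSeq windows of this length. The ID1 window has TATAAA starting 31 bases before the start (10.7% of windows hold it), the ID4 window has it at 29 bases and 1 of 3 SMAD7 windows at 35 bases. GGCGCC, in 16.4% of windows, occurs 3 times in the BAMBI window and once each in that of SKIL and in 1 of 3 BMP4 windows. SKIL also holds TGACGTCA, found in 1.65% of windows, 54 bases before its start. In the ID2 and ID3 windows none of these 4 words occurred. Thus the 3 members that fell together shared none of the searched words in this stretch. These are matches of letters in a short window, and no binding was measured.

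ID2 was at 194, 175, 179 and 131 CPM. One library, FAT4 siRNA 48 h, was low, and the other 3 lay between 175 and 194 CPM. Counts of ID2B, an ID2 pseudogene listed separately, were 46 to 115 per library, and reads that match both genes could be split between them. ID2 fell by 0.30 with time (SE 0.0925, adjusted p = 0.00858), with time ratios of 0.904 under control siRNA and 0.731 under FAT4 siRNA. BAMBI, a truncated receptor that blocks signalling, was at 54.2, 43.8, 58.3 and 44.0 CPM, higher in both 24 h libraries. BAMBI fell by 0.36 (SE 0.1115, adjusted p = 0.00880), with ratios of 0.807 and 0.755. DESeq2 called neither of these decreases (adjusted p = 0.112 for ID2 and 0.121 for BAMBI), nor did the fit with a BCV of 0.1.

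SKIL encodes SnoN, a repressor that binds SMAD2, SMAD3 and SMAD4. SKIL was at 23.6, 30.4, 27.7 and 33.96 CPM, higher at 48 h than at 24 h within each siRNA. It rose by 0.33 (SE 0.129, adjusted p = 0.0411). The call was lost after correction for GC content and transcript length, with a log2 fold change of 0.20 and adjusted p = 0.193. Its transcript had the lowest GC content of the members, 33.4%, against a median of 48.5% over tested genes and 47.0% to 58.8% for the other members. DESeq2 did not call SKIL either (adjusted p = 0.307).

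ID4 was at 46.2, 53.8, 60.02 and 64.01 CPM, lowest in control 24 h. Its log2 fold change with time was 0.16 (adjusted p = 0.289). SMAD7, the inhibitory SMAD that acts on both branches, was at 14.7, 14.3, 16.2 and 13.9 CPM, with a log2 fold change of -0.13 (adjusted p = 0.581). SMAD6 made up 70.4% of the summed SMAD6 and SMAD7 counts in control 24 h (exact 95% interval 67.6% to 73.06%) and 56.5% in control 48 h (52.6% to 60.3%). With the FAT4 siRNA the share was 65.6% (61.9% to 69.1%) at 24 h and 55.4% (50.9% to 59.9%) at 48 h. These shares use no scaling between libraries or by transcript length and are compared only between libraries, and the intervals of the 2 times did not overlap under either siRNA.

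Shares within the ID family were taken in the same way. ID3 gave 32.3% of ID1 to ID4 counts in control 24 h (interval 31.4% to 33.3%) and 16.8% in control 48 h (15.8% to 17.8%). With the FAT4 siRNA ID3 gave 29.7% (28.5% to 30.9%) at 24 h and 22.6% (21.3% to 23.9%) at 48 h. The share of ID3 was thus lower at 48 h under both siRNAs, and the gap was wider under control siRNA. The ID4 share was higher at 48 h, at 18.7% against 11.8% with control siRNA and 23.9% against 16.1% with FAT4 siRNA. Shares are parts of one sum, so that of ID4 also depends on the fall of the other ID genes. The level of ID4 itself had a log2 fold change with time of 0.16 and was not called. The ID2 share was 60.9% in control 48 h and 48.1% to 49.5% in the other 3 libraries. Summed over the 4 genes, ID transcripts were at 391 and 373 CPM at 24 h and at 287.5 and 268 CPM at 48 h, the control siRNA first.

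**Figure D3:**
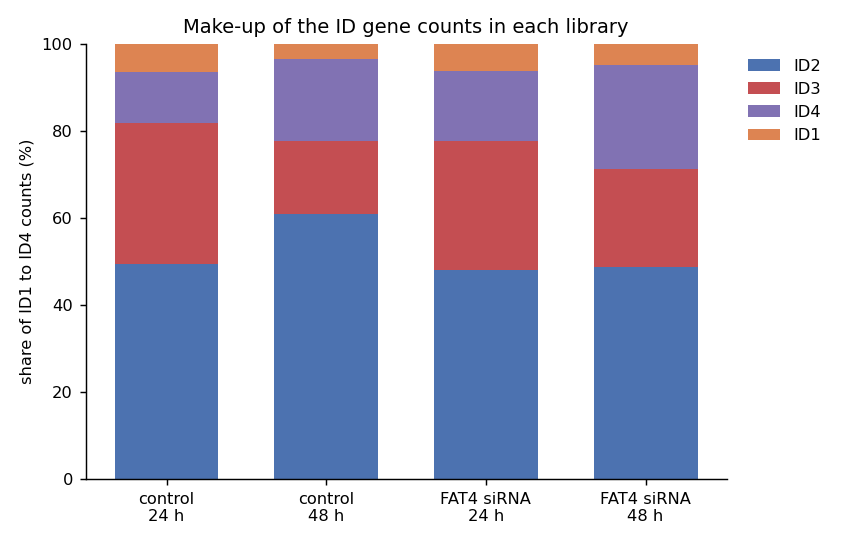
Share of each ID gene in the summed counts of ID1 to ID4 (stacked to 100%) in the 4 libraries. The ID3 segment is 32.3% and 29.7% at 24 h and 16.8% and 22.6% at 48 h, and the ID4 segment is largest, 23.9%, in FAT4 siRNA 48 h.

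The comparison of the siRNAs asked which members differed between FAT4 siRNA and control siRNA on average over both times. Of the tested members, ID4 was called higher, ID2 lower, and no other tested member was called. One of 8 called in each direction stands beside 11.9% of all genes tested called higher and 14.1% called lower, so the share of members called was near the background. The median log2 fold change was 0.06 over the tested members and -0.01 over all genes. No member was past 1.5-fold at either time. Of the 10595 genes averaging 5 CPM or more, 2.62% were past 1.5-fold higher and 4.62% lower at 24 h, and 4.10% and 6.90% at 48 h.

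ID4 was higher with the FAT4 siRNA at both times, by a ratio of 1.30 at 24 h (counting interval 1.19 to 1.42) and 1.19 at 48 h (1.09 to 1.30). ID4 rose by 0.31 in log2 units (SE 0.108, adjusted p = 0.0190). ID2 was lower at both times, with a ratio of 0.925 (0.881 to 0.971) at 24 h and 0.748 (0.708 to 0.790) at 48 h. ID2 fell by 0.26 (SE 0.0925, adjusted p = 0.0210). Neither gene was called by DESeq2, with adjusted p = 0.148 for ID4 and 0.186 for ID2, or at a BCV of 0.1. After the GC and length correction both calls held, but the 24 h log2 ratio of ID2 was -0.02 in place of -0.11.

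The other 6 tested members did not pass in the fit over both times. SMAD7 had a log2 fold change of 0.05 and BAMBI of 0.06, and all 4 of their siRNA ratios had counting intervals that included 1. SKIL had a log2 fold change of 0.19 (adjusted p = 0.280) and SMAD6 of -0.15 (adjusted p = 0.441). At 24 h the intervals of SKIL (1.03 to 1.33) and SMAD6 (0.782 to 0.988) excluded 1, and with the GC and length correction both of these ratios changed sign, to -0.06 and 0.05 on the log2 scale. ID1 and ID3 had fitted changes of 0.08 and 0.05, which average a 24 h ratio below 1 and a 48 h ratio above 1.

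For ID3 the FAT4 siRNA library was lower than control at 24 h, with a ratio of 0.875 (0.822 to 0.930), and higher at 48 h, with a ratio of 1.25 (1.15 to 1.37). ID1 had a ratio of 0.922 (0.803 to 1.06) at 24 h, an interval that includes 1, and 1.25 (1.02 to 1.53) at 48 h. On the log2 scale with 1 CPM added, the ratio at 48 h exceeded that at 24 h by 0.51 for ID3 and by 0.41 for ID1. A difference of the size of that of ID3, in either direction, was found in 5.17% of 10595 genes, and the median absolute difference was 0.15. Counting intervals that excluded 1 in opposite directions were found for ID3 alone among the members and for 3.72% of those genes. Intervals of the 2 times that did not overlap were found for ID2 and ID3, and for 24.0% of genes. With the GC and length correction the log2 ratios of ID3 were -0.03 at 24 h and 0.35 at 48 h, and those of ID1 were 0.08 and 0.34, no longer of opposite sign. The difference between the times could not be tested, since a term for it would use up the last degree of freedom of the 4 libraries. It is the same quantity as the difference between the siRNAs in the fall of ID3 with time.

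**Figure D4:**
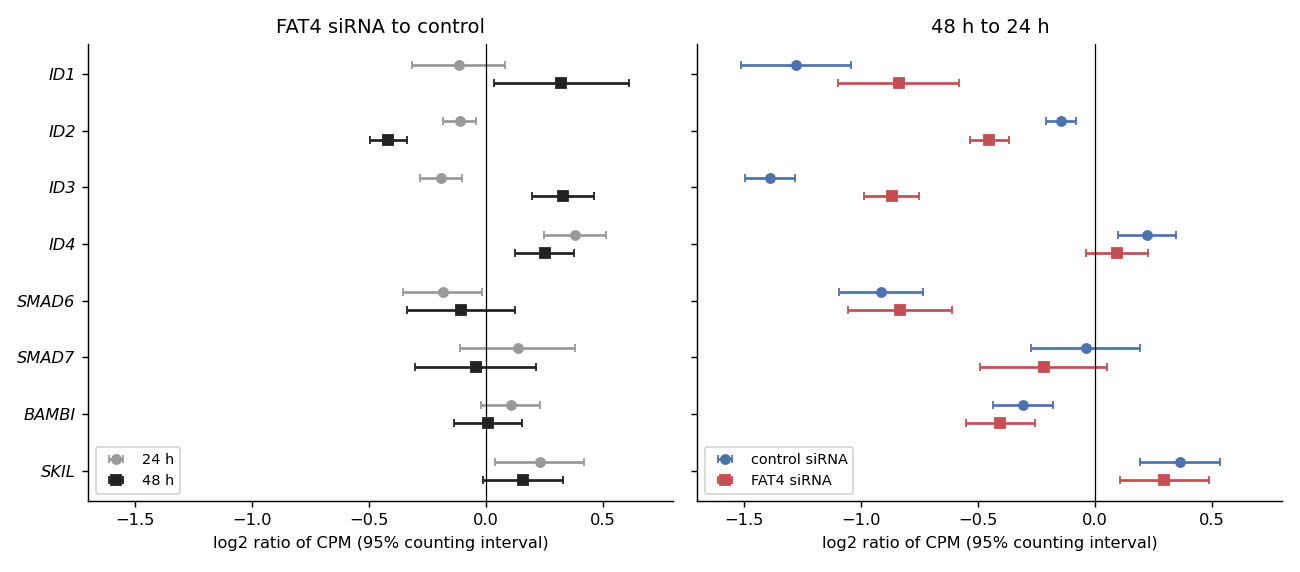
Log2 ratios of CPM with 95% counting intervals for the 8 expressed members, FAT4 siRNA to control on the left (24 h grey, 48 h black) and 48 h to 24 h on the right (control siRNA blue, FAT4 siRNA red). On a linear scale the time ratios of ID1, ID3 and SMAD6 are 0.382 to 0.561, and the siRNA ratios of all 8 members are 0.748 to 1.30. The panels use the same 4 libraries.

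The members' 3' UTRs (GENCODE release 29) were searched for 7-base words that had been picked for their link with the FAT4 siRNA ratios of all genes in these same libraries, so a match supports nothing by itself. TTGGACT, picked on the side of lower ratios, occurs in 11.8% of 12417 3' UTRs of tested genes. It occurs in 2 members, shown with the word in capitals because one of them was called lower.
ID2: tctcttacTTGGACTgtgatatt
SKIL: aggttattTTGGACTtctgtatg

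The ID2 match starts at base 194 of a 3' UTR of 779 bases, and the SKIL match at base 948 of 4421. ID2 was the member called lower with the FAT4 siRNA, and SKIL, which also has the word, had ratios of 1.17 and 1.12. The forms TGGACTA, in 7.46% of these UTRs, and AGCCTTA, in 11.2% and tied to higher ratios, occur in none of the 9 members.

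The rest of the pathway was read from 9 lists holding 157 distinct genes of the files, of which 104 were tested. Among 19 BMP and GDF ligands, 6 were tested. In edgeR's test 0 of the 6 were called in either comparison, as by DESeq2. Of all genes tested, 11.9% were called higher and 14.1% lower with the siRNA, and 13.8% and 12.8% with time. At an unadjusted p under 0.05 by edgeR there were 0 of the 6 with the siRNA and 2 with time. Of all 13712 genes tested, 5006 and 5071 passed that limit. GDF6, a BMP-type ligand, was at 230 and 268 CPM in control 24 h and 48 h and at 237 and 265 CPM with the FAT4 siRNA. Its log2 fold change with time was 0.19 (adjusted p = 0.0983), and scaling by total counts alone called it higher. BMP2 had at most 1 count in any library, as BMP4 did.

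Of 9 tested TGF-beta and activin ligands and latent binding proteins, 3 fell with the FAT4 siRNA, beside 14.1% of all genes tested. DESeq2 called 2 lower. LTBP3 and LTBP4, which hold latent TGF-beta in the matrix, fell by 0.58 (adjusted p = 1.27e-06) and 0.44 (adjusted p = 0.000345), and the ligand GDF11 by 0.40 (adjusted p = 0.00056). With time LTBP4 rose by 0.65 and TGFB1 fell by 0.26 (adjusted p = 0.0335). INHBE, an inhibin subunit, also rose, with 48 h to 24 h ratios of 7.62 (counting interval 4.41 to 14.1) under control siRNA and 34.02 (11.3 to 168) under FAT4 siRNA, the latter on 3 counts at 24 h. Of 14 tested receptors and co-receptors, 2 fell with the siRNA, a share close to the 14.1% of all genes tested, and DESeq2 called 1. BMPR2, the type II BMP receptor, was at 109 and 132 CPM in control 24 h and 48 h and at 85.1 and 91.3 CPM with the siRNA, and fell by 0.44 (SE 0.0965, adjusted p = 7.42e-05). ACVR1B, an activin receptor, fell by 0.36 (adjusted p = 0.00614). With time 2 receptors rose, the BMP co-receptor RGMB by 0.68 and ACVR2B by 0.47, and BAMBI was the 1 that fell. Of all genes tested, 13.8% were higher with time and 12.8% lower, and DESeq2 called 1 receptor higher and 0 lower.

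Among the 8 SMAD genes, SMAD1, a BMP-branch SMAD, rose with the siRNA by 0.29 (adjusted p = 0.0369), and SMAD6 was the 1 that fell with time. DESeq2 did not call SMAD1. Each was 1 of 8, beside 11.9% of all genes tested called higher with the siRNA and 12.8% lower with time. Of 10 tested extracellular antagonists, 2 rose and 2 fell with the siRNA, beside 11.9% and 14.1% of all genes tested. DESeq2 called 2 higher and 0 lower. FSTL1, a secreted follistatin-like protein, was at 261 and 167 CPM with control siRNA and at 440.5 and 332 CPM with FAT4 siRNA at 24 h and 48 h. FSTL1 rose by 0.87 (SE 0.09, adjusted p = 1.34e-19), and CRIM1, which binds BMPs, by 0.45 (adjusted p = 6.67e-05). BMPER fell by 0.43 (adjusted p = 0.0447) and CER1 by 0.39 (adjusted p = 0.00298). With time FSTL1 fell by 0.53 and CRIM1 by 0.26. GREM1, a secreted BMP inhibitor, was the third antagonist lower with time, on 12, 1, 16 and 2 counts. Of the 10 antagonists, 3 were thus lower with time, beside 12.8% of all genes tested, and DESeq2 called 1 of these 3. Of 23 tested intracellular regulators, 3 rose and 3 fell with the siRNA, shares close to those of all genes tested (11.9% higher and 14.1% lower). Among them were the ubiquitin ligase SMURF2, which fell by 0.39, and the corepressor TGIF1, which rose by 0.28. The SMAD anchor ZFYVE9 fell by 0.31 and the deubiquitinase USP15 rose by 0.29. With time 3 rose, SKIL among them, and 4 fell, beside 13.8% and 12.8% of all genes tested. DESeq2 called 0 of these 23 in either comparison.

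Of 17 tested BMP and SMAD1/5 targets, which include 7 members, 9 were lower at 48 h and 0 higher, beside 12.8% and 13.8% of all genes tested. No target was higher at an unadjusted p under 0.05 by edgeR or called higher by DESeq2. The list was drawn up with these results known, so its direction is a description. The list's median log2 fold change with time was -0.30, against 0.01 over all genes tested. Of its 10 tested genes that are not members, 4 were lower: GATA2, ATOH8, DLX2 and GREM1. GATA2, a transcription factor, was at 52.2, 22.6, 41.01 and 22.2 CPM, low in both 48 h libraries. GATA2 fell by 1.05 (SE 0.125, adjusted p = 6.05e-15). ATOH8, a basic helix-loop-helix factor, was at 6.18, 3.23, 5.96 and 2.24 CPM in the same order, and fell by 1.14 (SE 0.2445, adjusted p = 5.8e-05). DLX2, a homeobox factor, fell by 0.47 (adjusted p = 0.00475). The 48 h to 24 h ratios of GREM1 were 0.0925 (0.00216 to 0.625) and 0.118 (0.0132 to 0.5025). The number of lower targets was 4 by DESeq2 (ID1, ID3, SMAD6 and GATA2), 5 at a BCV of 0.2 and 0 in the model with time alone. With the siRNA the list had 1 gene called higher, ID4, and 3 lower, ID2, RUNX2 (fell by 0.51, adjusted p = 0.0423) and GATA3 (fell by 0.84, adjusted p = 0.0221). DESeq2 called 0 of these 4, and the list's median was -0.01. Of all genes tested, 11.9% were called higher with the siRNA and 14.1% lower.

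The 20 tested TGF-beta and SMAD2/3 targets, which include SKIL and SMAD7, had 7 genes called higher with the FAT4 siRNA and 1 lower, beside 11.9% and 14.1% of all genes tested. DESeq2 called 5 higher and 1 lower. This list too was drawn up with earlier results of these data known, so its direction is a description. CTGF, a matricellular protein, rose by 1.93 (SE 0.140, adjusted p = 3.5e-39), and the transcription factor KLF10 by 0.97 (SE 0.119, adjusted p = 6.73e-14). IGFBP3, which binds insulin-like growth factors, was called higher on few counts, with siRNA ratios of 2.72 (1.40 to 5.50) at 24 h and 5.57 (1.53 to 30.5) at 48 h. The list's median log2 fold change with the siRNA was 0.22, and SKIL and SMAD7 were not among the genes called. With time 3 rose, SKIL among them, and 5 fell, against 2 and 1 by DESeq2. Of all genes tested, 13.8% were called higher with time and 12.8% lower. BHLHE40, a transcriptional repressor, rose by 1.16 (adjusted p = 3.4e-07). Of the E proteins and partners that ID proteins bind, 5 of 19 were tested. TCF4, an E protein, fell with the siRNA by 0.39 (SE 0.0930, adjusted p = 0.000293). With time 0 of the 5 were called by edgeR or DESeq2, and 1 was lower at an unadjusted p under 0.05, while ID1, ID2 and ID3 fell.

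**Figure D5:**
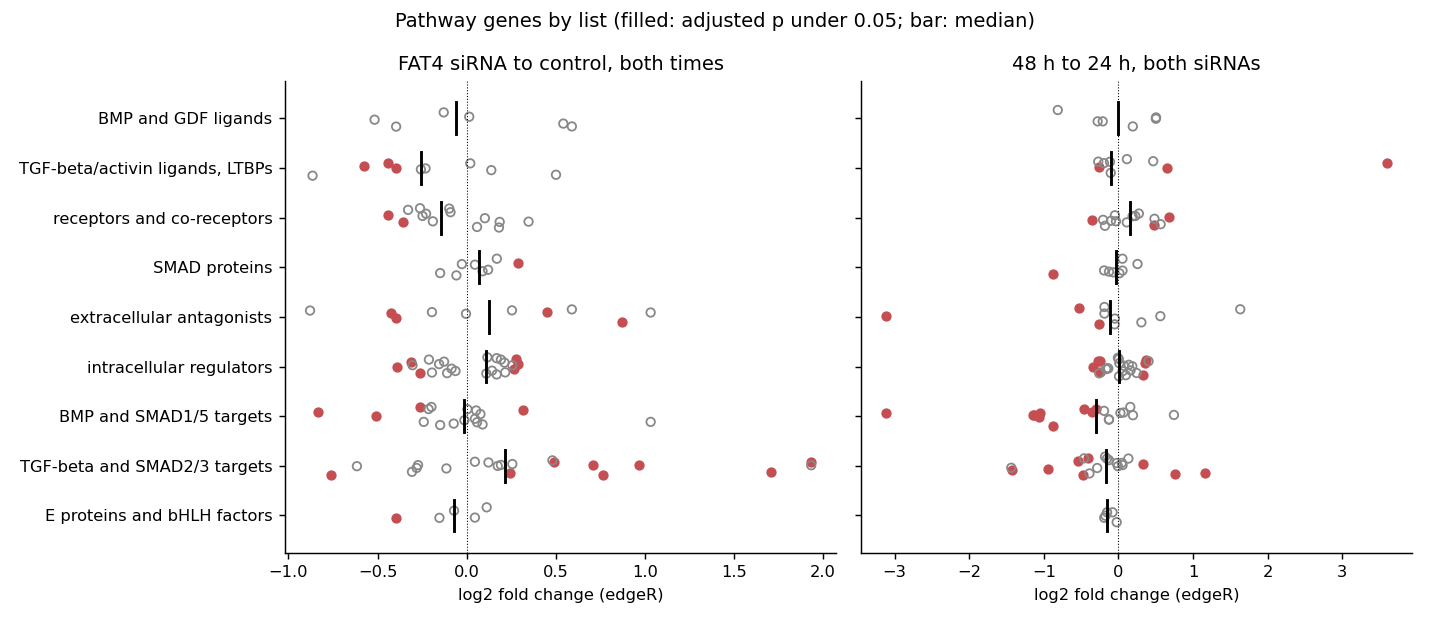
Log2 fold changes of the tested genes of each pathway list for FAT4 siRNA to control (left) and 48 h to 24 h (right), 1 point per gene, filled where the adjusted p was under 0.05, with a bar at the list's median. On the right 9 of 17 BMP and SMAD1/5 targets are filled and all 9 lie left of 0, and on the left 7 of the 8 filled TGF-beta and SMAD2/3 targets lie right of 0. The lists were drawn up with earlier results of these data known.

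The members with the widest spread over the 4 libraries were ID3 and ID1. The genes most like them were ranked by the Euclidean distance between profiles of log2(CPM + 1), each centred on its own mean over the 4 libraries, among 10595 genes. ID1 and ID3 were each other's nearest gene, at a distance of 0.134. SMAD6 was number 16 in likeness to ID3 and number 19 to ID1, whereas ID2 was number 2136 and 2271. After ID1, the genes most like ID3 were UTS2 (0.261), CRIP2 (0.277), CCDC86 (0.284), GATA2 (0.284) and SERPINB8 (0.307). The genes most like ID1 after ID3 were UTS2 (0.146), CCDC86 (0.180), CRIP2 (0.184), SERPINB8 (0.239) and RRP9 (0.252). With 4 libraries such a ranking describes these values only.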

How the data were processed

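RNA was extracted with TRIzol and poly(A) libraries were made with a stranded kit, per the labels' protocols. The deposited counts per gene were made by the authors on hg19, and CASAVA 1.8.2, TopHat2, SAMtools and HTSeq are named in the submitters' processing notes. For the annotation, counting mode and strand setting, the sources used here give no entry. Reads assigned to no gene (19.5% to 20.5% of reads listed) and ambiguous reads (0.772% to 0.804%) were left out.

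Counts of 4 libraries were scaled by TMM and fitted with edgeR 4.0.16 (R 4.3.3, quasi-likelihood, siRNA and time as terms, filterByExpr with a minimum count of 10 and a minimum total of 15), which kept 13712 genes. The fit had 1 residual degree of freedom and a common BCV of 0.0737, so the spread rests on all genes and on the siRNA effect being the same at both times. Two-sided p-values were adjusted by Benjamini-Hochberg over all genes tested at 0.05. The standard error is the fold change divided by the root of F. Ratios of single libraries have exact 95% Clopper-Pearson intervals and levels exact Poisson intervals, which cover counting error only and not the spread between cultures. The script was tested on simulated data.

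Alternatives were RLE scaling, total counts only, no filter, genes of at least 5 CPM, preset BCVs of 0.1 and 0.2, the tested factor alone, DESeq2 1.42.0, a spline correction for GC content and length (a transcript matched for 95.4% of tested genes), and for single ratios 0.1 CPM added in place of 1. Lengths, GC content and 3' UTRs came from GENCODE release 29, and promoters from RefSeq. The members, the lists and the tests were chosen with earlier results of these data known. All members were named, with at most 4 genes of each list called for the siRNA and 2 for time, by size of change, and 5 likeness neighbours of the 2 most variable members. CAV1, CCND1, GDF6, BMP2, TGFB1, DLX2, and CRIM1 with time were named after their values were seen. One gene that the rule names is not reported here.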

Additional observations from a re-analysis of the deposited data

Results flagged for a closer look

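ID3 was flagged because its FAT4 siRNA to control ratio went in opposite directions at the 2 times, with counting intervals that excluded 1 at both. The same was found for 3.72% of 10595 genes averaging 5 CPM or more. The log2 ratio of ID3 with 1 CPM added was -0.19 at 24 h and 0.32 at 48 h, a difference of 0.51. A difference of at least that size, in either direction, was found in 5.17% of those genes. The difference between the times was not tested. After the GC and length correction the ratios were -0.03 and 0.35, so the sign at 24 h then rested on a value near 0.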

How the results depend on the processing

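With 1 library per siRNA and time, leaving out a library gives the ratio at the remaining time and no test. No paired analysis was possible because each siRNA and time has 1 library, so there are no replicate numbers to pair; the fit itself compares the siRNAs within each time. Of the 8 tested members, 2 were called for the siRNA; the number was 0 at a BCV of 0.2 (0 at an unadjusted p under 0.05), 0 at a BCV of 0.1 (1 unadjusted), 0 with the siRNA alone in the model (0 unadjusted) and 0 by DESeq2 (2 unadjusted). For time 6 were called, and these settings called 2, 3, 0 (4 unadjusted) and 3. Over all genes the siRNA calls numbered 3555 and became 134, 2170, 0 (1706 unadjusted) and 1244. The time calls numbered 3646 and became 394, 2304, 50 and 1176. RLE scaling, total counts, no filter, the 5 CPM minimum and the GC and length correction kept these 4 counts within 1.5 times. Time calls were 51.9% higher (1892 higher, 1754 lower), against 66.3% with total counts only (2330 and 1183) and 39.9% after the GC and length correction (1679 and 2531). For the siRNA, the log2 fold change of ID3 turned from 0.053 to -0.031 with the siRNA alone in the model. The GC and length correction turned that of SMAD6 from -0.149 to 0.023, and the 24 h log2 ratios of SMAD6 (from -0.18 to 0.047) and SKIL (from 0.22 to -0.057). It also moved across 0 the log2 ratios of ID1 at 24 h (from -0.11 to 0.08), SMAD6 at 48 h (from -0.10 to 0.008) and SMAD7 at 48 h (from -0.04 to 0.085), all 3 still inside their counting intervals. The cause was not tested. The time signs of the 8 members were the same under all 9 alternative fits. SKIL lost its time call under 6 of them, also without the filter on low counts (adjusted p = 0.0712). Depth limited BMP4, which stayed under the floor.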
